A study of Mus musculus with 16 samples.

Results

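The response of inguinal fat to a high-fat diet (HFD) was measured in mice lacking Kmo, by comparing 4 knockout (KO) animals on HFD with 4 KO animals on chow. These 8 libraries are all those of the KO genotype among the 16 of the study; the other 8 come from wild-type (WT) littermates, 4 on each diet. All animals were male and 6 to 7 months old. The deletion is in the whole body, so both groups compared here lack the gene in every tissue, and every library is numbered as a replicate of its group, with 4 per group. Each library carries its own code in its sample description. In KO, every code number on HFD is lower than every code number on chow. The library numbers in the file headers are all higher on HFD than on chow. What these orders stand for is not stated, and they cannot be told apart from diet here. Whether animals were pooled under a code is not stated in the sources used here. The composition of the diets, the length of feeding and the hour of tissue collection are not given in the sources used here. Kmo encodes kynurenine 3-monooxygenase, which turns kynurenine, a product of tryptophan breakdown, into 3-hydroxykynurenine.

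Inguinal white fat is a subcutaneous depot of the groin. Its adipocytes store triglyceride, make fatty acids from sugar when dietary fat is low, and secrete leptin, which reports the size of the fat store to the brain. Some of its adipocytes can take on a heat-producing (beige) state marked by the uncoupling protein UCP1, and the depot contains a lymph node.

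KO libraries held 13824404 to 16909361 counted read pairs, so that 1 CPM (a count scaled to 1000000 per library) stood for 13 to 17 counts. Kmo itself (chromosome 1, 175620381 to 175662116, GRCm38) had 2, 8, 3 and 3 counts in the chow libraries and 1, 2, 2 and 1 counts in the HFD libraries, over all its exons, while WT libraries had 40 to 298. The adipocyte genes Adipoq, Plin1, Fabp4, Lipe and Pparg were detected in all 8 libraries, with Adipoq between 1762 and 2529 CPM. Some libraries stood apart. The lymphoid score, an average of log2 CPM over marker genes of T and B cells, was 4.63 and 5.49 in KO chow replicates 1 and 3 and 4.87 in KO HFD replicate 1, and between 0.02 and 1.59 in the other 5. KO HFD replicate 1 was also the only KO library from a single sequencing lane, per the file headers. The skeletal muscle score ran from 0.60 to 4.70 on chow and from 1.19 to 3.71 on HFD. KO chow replicate 4 lay closest to the HFD libraries of the chow animals: among the 1957 genes that responded to diet in WT, a set chosen without KO libraries in the contrast, it was the chow library nearest the HFD side in 58.7%. KO HFD replicate 1 was the HFD library nearest the chow side in 61.8% of them.

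HFD was compared with chow to ask what the diet changes in the fat of animals without Kmo. On HFD 8 of 21 genes of fatty acid synthesis, 5 of 18 genes of the beige adipocyte and 8 of the 13 protein genes of the mitochondrial genome fell. Of 19 circadian clock genes 11 fell and 4, among them Arntl and Clock, rose. The leptin gene Lep, 15 of 36 genes of the extracellular matrix and 6 of 14 imprinted and adipocyte size genes rose. Of 16549 genes tested, 2071 (12.5%) passed an adjusted p under 0.05 in edgeR's quasi-likelihood test and are described as called; 1205 (7.28%) were higher on HFD and 866 (5.23%) lower. With upper-quartile scaling the split was 919 higher and 1113 lower. In 1741 of the 2071 the 4 HFD and 4 chow libraries did not overlap, against 18.6% of all genes tested (10.2% higher on HFD and 8.47% lower). Most changes were small: 603 called genes had a log2 fold change of at least 1 in size (283 higher, 320 lower), and of the 39 with a size of 3 or more, 7 were higher and 32 lower. The median over all genes tested was −0.04.

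The number of calls depended on single libraries. Leaving out KO HFD replicate 2 gave 745 calls, KO chow replicate 3 gave 785, KO HFD replicate 3 gave 824, KO chow replicate 2 gave 947 and KO HFD replicate 4 gave 1062. Of the libraries that stood apart, KO HFD replicate 1 gave 2337 calls when left out, KO chow replicate 4 gave 2714 and KO chow replicate 1 gave 1796. A fit on libraries with a lymphoid score under 4, which keeps 5 of the 8 KO libraries, gave 768 calls, 640 of them among the 2071. Where several genes are said below to lose their calls, the libraries and the highest adjusted p are pooled over those genes. A single gene among them may have lost its call without only 1 of the libraries.

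**Figure D1:**
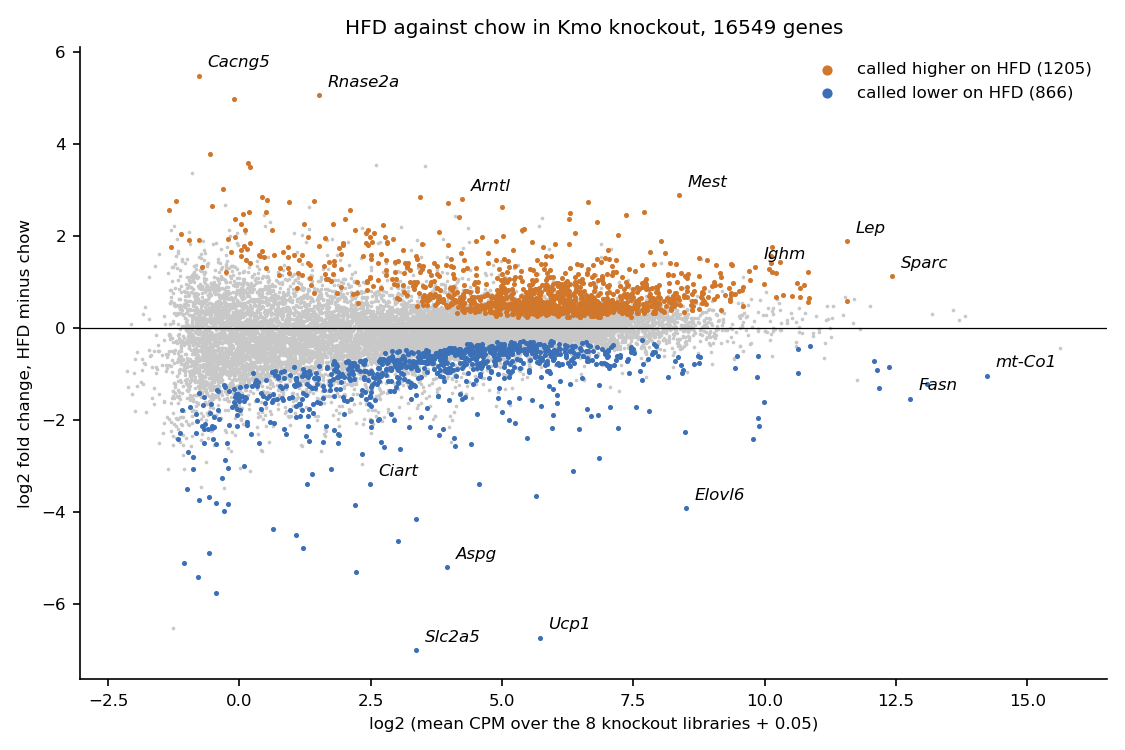
Log2 fold change of HFD against chow in KO (vertical axis) against mean expression over the 8 KO libraries (log2 CPM with 0.05 added, horizontal axis), one point per gene of 16549 tested; orange marks the 1205 genes called higher and blue the 866 called lower. The decreases reach further than the increases, with Slc2a5 at −7.00 and Ucp1 at −6.72 at the bottom.

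Lep, the leptin gene (chromosome 6, 29060220 to 29073877), stood at 853, 1060, 844 and 2410 CPM on chow and at 2963, 5677, 6255 and 4158 CPM on HFD. For Lep this was a log2 change of 1.88 ± 0.37 (SE; edgeR, adjusted p = 0.00797). The groups did not overlap, and KO chow replicate 4 lay well above the other chow libraries, close to the lowest HFD library. Elovl6 (chromosome 3, 129532355 to 129638495), an elongase that lengthens palmitate, had 791, 1218, 577 and 152 CPM on chow and 34.6, 51.4, 41.5 and 55.1 CPM on HFD. For Elovl6 this was a log2 change of −3.91 ± 0.49 (SE; edgeR, adjusted p = 0.00159). Slc2a5 (chromosome 4, 150119283 to 150144169), the fructose transporter GLUT5, had 27.2, 32.1, 20.1 and 2.25 CPM on chow and 0.283, 0.133, 0 and 0.209 CPM on HFD. For Slc2a5 this was a log2 change of −7.00 ± 0.90 (SE; edgeR, adjusted p = 0.00164). In both genes every HFD library lay below every chow library, and KO chow replicate 4 was the lowest of the chow libraries. In bulk tissue a lower level can reflect fewer cells of a type or less RNA per cell, and these cannot be told apart here. The calls of all 3 genes held without any single library.

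**Figure D2:**
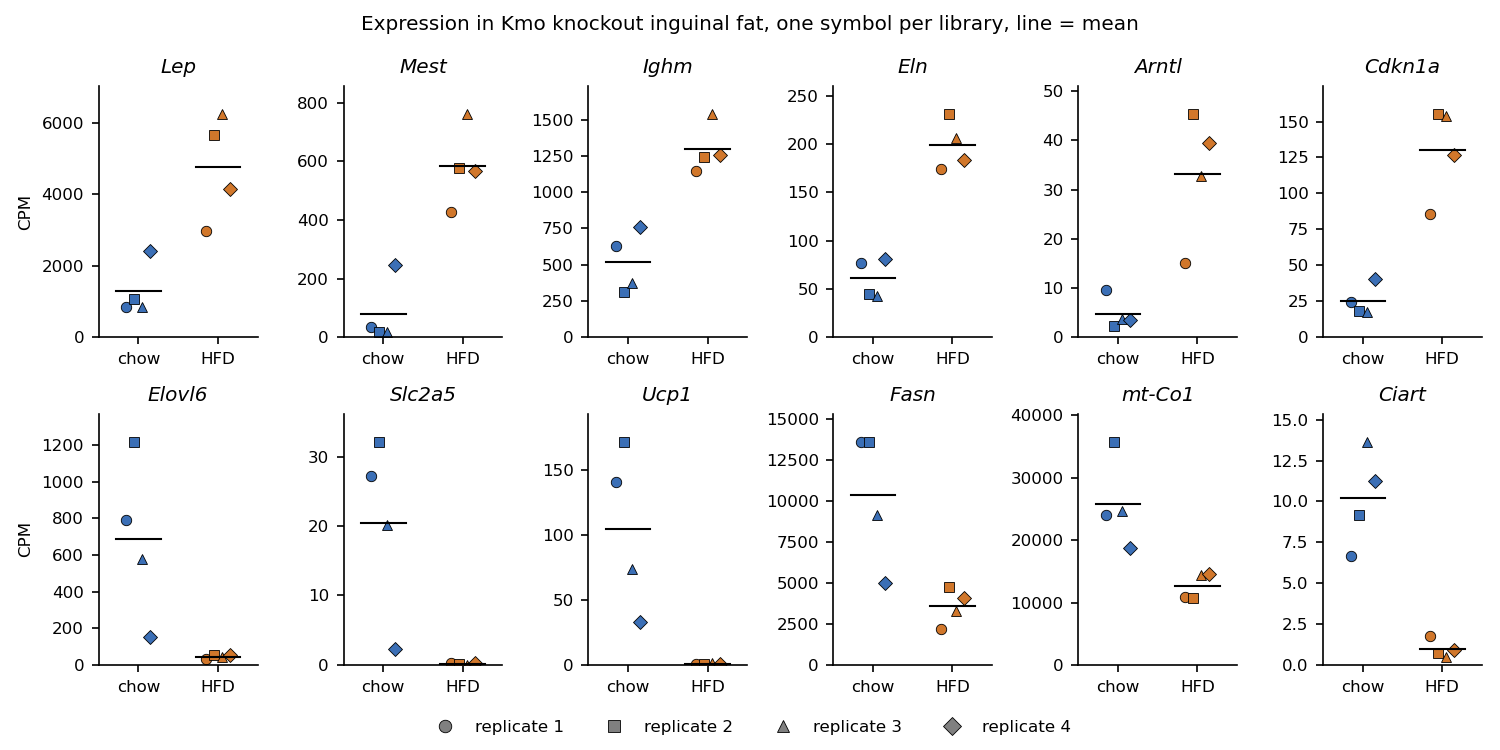
Expression in CPM of 12 genes in each KO library, with a panel per gene, linear axes from 0, a symbol shape per replicate number and a line at the group mean (n = 4 per diet). In all 12 panels the chow and HFD libraries do not overlap, and in Lep, Mest, Elovl6 and Slc2a5 the diamond of KO chow replicate 4 lies nearest the HFD side.

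Among called genes without overlap and with a mean of at least 1 CPM in 1 group, the largest decreases after Slc2a5 began with Ucp1. Ucp1, whose protein lets brown and beige mitochondria make heat, had 141, 172, 73.6 and 32.9 CPM on chow and 1.06, 0.934, 1.11 and 0.837 CPM on HFD. For Ucp1 this was a log2 change of −6.72 ± 1.08 (SE; edgeR, adjusted p = 0.00446). Atp4b, known as the beta subunit of the gastric proton pump, rested on 65 counts on chow and 1 on HFD, summed over 4 libraries each, which is 61.4 times as much per count sequenced (counting interval at 95%, 10.6 to 2460). Aspg, an asparaginase, had 44.5, 47.1, 26.4 and 2.69 CPM on chow and 1.06, 0.601, 1.11 and 0.488 CPM on HFD. For Aspg this was a log2 change of −5.19 ± 0.98 (SE; edgeR, adjusted p = 0.00769). In these 3 KO chow replicate 4 was the lowest chow library, and no HFD library exceeded 1.11 CPM. Adprhl1 (−4.77), Fabp3 (−4.62, a fatty acid-binding protein of muscle and heart), Fer1l6 (−4.50, a ferlin), Sorcs2 (−4.15, a sortilin-family receptor), Hpcal4 (−3.98, a neuronal calcium sensor), Ttc25 (−3.84) and Cyp1a1 (−3.81) were, with Elovl6, the other decreases among the 12 largest, with edgeR adjusted p of 0.00211 (Ttc25) to 0.031 (Hpcal4). The call of Hpcal4 was lost when 1 or another of KO chow replicates 2 and 3 and KO HFD replicates 1, 2 and 3 was left out, with an adjusted p reaching 0.0953 (without KO HFD replicate 2).

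The largest increases were in genes of low expression. Cacng5, a gamma subunit of voltage-gated calcium channels, had 1 count on chow and 64 on HFD, or 67.7 times as much (counting interval 11.7 to 2720). Rnase2a had 0.126, 0, 0 and 0.5 CPM on chow and 2.76, 6.87, 8.23 and 4.11 CPM on HFD, a log2 change of 5.05 ± 0.93 (SE; edgeR, adjusted p = 0.00619); it belongs to a family of similar ribonuclease genes, among which reads may have been divided. Chrm4, a muscarinic acetylcholine receptor, had 3 counts on chow and 105 on HFD, or 37.0 times as much (counting interval 12.3 to 182). All 3 were at 0.50 CPM or below in every chow library. Gpr50 (3.78, an orphan receptor of the melatonin receptor family), Duox2 (3.58, a dual oxidase), Ina (3.49, a neuronal intermediate filament), Sult4a1 (3.02, a sulfotransferase), Aff2 (2.73) and Osgin1 (2.71, an oxidative stress gene) completed the 12 largest increases together with Mest, Zim1 and Arntl, described below with their groups. Osgin1 rose from 4.13 ± 1.63 to 27.1 ± 12.5 CPM (SD, n = 4), with KO HFD replicate 1 lowest of the HFD libraries at 9.56. The calls of Gpr50, Duox2, Ina, Sult4a1 and Aff2 were each lost when 1 or another of WT chow replicate 1, WT HFD replicates 2 and 3, KO chow replicates 1, 2 and 3 and KO HFD replicates 2, 3 and 4 was left out, with an adjusted p reaching 0.118 (without KO chow replicate 3). Ina lost its call in 9 of these fits and gave that highest value. Sult4a1 lost its call in only 1 (edgeR adjusted p = 0.0503 without KO chow replicate 3).

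De novo lipogenesis is the making of fatty acids from sugar, by way of citrate, acetyl-CoA and malonyl-CoA. Of 21 genes of this route, 8 were called lower and 1 higher on HFD, with a median of −0.60 against −0.04 over all genes. Acly, which splits citrate into acetyl-CoA, had 2182, 2185, 1268 and 528 CPM on chow and 245, 415, 333 and 424 CPM on HFD. For Acly this was a log2 change of −2.12 ± 0.39 (SE; edgeR, adjusted p = 0.00596). Acaca, the acetyl-CoA carboxylase that makes malonyl-CoA for synthesis, had 1787, 2229, 1315 and 555 CPM on chow and 206, 314, 231 and 365 CPM on HFD. For Acaca this was a log2 change of −2.40 ± 0.34 (SE; edgeR, adjusted p = 0.00203). Fasn, the fatty acid synthase, had 13616, 13621, 9137 and 5013 CPM on chow and 2183, 4746, 3300 and 4079 CPM on HFD. For Fasn this was a log2 change of −1.53 ± 0.32 (SE; edgeR, adjusted p = 0.00986). In all 3 the lowest chow library was KO chow replicate 4, which still lay above every HFD library. Acacb, the carboxylase isoform of the mitochondrial surface, fell by 2.26 with an overlap of the groups (144 CPM in KO chow replicate 4 and 157 in KO HFD replicate 4), and the transketolase gene Tkt by 1.61 without overlap. The other called members, outside the rule for named genes and given after their values were seen, were Thrsp (−1.96, a lipogenic regulator), Mlxipl (−1.23, the sugar-responsive transcription factor ChREBP) and, as the only one higher, G6pdx (0.52, which makes NADPH). Srebf1, the sterol- and insulin-responsive regulator of lipogenesis, was not called at −0.37 (adjusted p = 0.132). The desaturase genes Scd1 at −0.43 (adjusted p = 0.33) and Scd2 at 0.62 (adjusted p = 0.223) were not called either. The count of 8 lower was 8 or 9 without any single library and 3 in the libraries with a lymphoid score under 4.

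Of 23 genes of sugar transport and glycolysis, 3 were lower and 1 higher, with a median of −0.31. Among all genes tested 12.5% were called. Besides Slc2a5, the insulin-responsive glucose transporter gene Slc2a4 was lower at −0.56 (edgeR adjusted p = 0.0236). The pyruvate kinase gene Pkm was lower at −0.86 (edgeR adjusted p = 0.0171). The phosphofructokinase gene Pfkp was higher at 0.52 (edgeR adjusted p = 0.00616). Slc2a4 ran from 253 to 301 CPM on chow and from 165 to 211 CPM on HFD, without overlap. The count of 3 lower was 1 without KO chow replicate 2 or KO HFD replicate 3, 5 without KO HFD replicate 1 and 7 without KO chow replicate 4. The calls of Slc2a4 and Pkm were each lost when 1 or another of KO chow replicate 2 and KO HFD replicates 2 and 3 was left out, with an adjusted p reaching 0.0726 (without KO HFD replicate 3). Insulin signalling genes had 1 of 21 members higher and 1 lower, against the same 12.5% of all genes called. Their median was 0.06, which was −0.000123 with upper-quartile scaling. The lower member was Pdk1 at −1.63 (edgeR adjusted p = 0.00566), which is also on the hypoxia list. This symbol stands for a pyruvate dehydrogenase kinase and not for the insulin-pathway kinase PDK1, which Pdpk1 encodes. Its call is therefore no result about insulin signalling. Akt2 stood at 0.06 (edgeR adjusted p = 0.721).

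Heat-producing adipocytes burn fuel in mitochondria that UCP1 uncouples. Of 18 genes of this state, 5 were called lower and 0 higher, with a median of −0.78. Cidea, a lipid droplet protein of brown and beige fat, had 205, 320.3, 185 and 92.1 CPM on chow and 21.9, 34.7, 23.8 and 33.9 CPM on HFD. For Cidea this was a log2 change of −2.81 ± 0.47 (SE; edgeR, adjusted p = 0.00477). The muscle and brown fat isoforms of cytochrome oxidase subunits followed, Cox7a1 from 20.2 ± 14.1 to 4.56 ± 0.564 CPM and Cox8b from 98.8 ± 57.7 to 26.9 ± 5.04 CPM (SD, n = 4), with log2 fold changes of −2.14 and −1.88 (edgeR adjusted p = 0.0112 and 0.0144). Fabp3 had 11.1, 33.2, 15.3 and 2.50 CPM on chow and 0.92, 0.534, 0.553 and 0.488 CPM on HFD. With Ucp1 these are the 5 called genes, and their groups did not overlap. In libraries with a lymphoid score under 4 the count of 5 lower was 3. Cox7a1 and Cox8b lost their calls there (edgeR adjusted p = 0.0647 and 0.0954). The regulators Prdm16 (−0.18, adjusted p = 0.415), Ppargc1a (−0.40, adjusted p = 0.19) and Ebf2 (−0.27, adjusted p = 0.472) were not called. Fabp3 and Cox7a1 are also made in muscle; 0 of 18 skeletal muscle genes were called by edgeR, DESeq2 or limma-voom (1 at an unadjusted edgeR p under 0.05), their summed level was 123 to 1125 CPM on chow and 156 to 631 CPM on HFD, and the part of muscle RNA in these 2 genes was not tested beyond a fit with the muscle score, in which both kept their calls. Of 10 genes of creatine and calcium cycling, a heat-producing route that does not use Ucp1, 2 were higher and 1 lower, with a median of 0.17. Over all genes 7.28% were called higher and 5.23% lower. Atp2a3, a calcium pump, stood at 1.36 (adjusted p = 0.0279), Atp2a2 at 0.39 (adjusted p = 0.0481) and Alpl, a phosphatase, at −0.97 (adjusted p = 0.041). The calls of Atp2a3, Atp2a2 and Alpl were each lost when 1 or another of WT chow replicates 1 and 2, WT HFD replicates 1, 2, 3 and 4, KO chow replicates 1, 2 and 3 and KO HFD replicates 1, 2, 3 and 4 was left out, with an adjusted p reaching 0.159 (without KO HFD replicate 2).

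The mitochondrial genome encodes 13 proteins of the respiratory chain. Transcripts of 8 of the 13 were called lower and of 0 higher, with a median of −0.82, and all 13 had log2 fold changes below 0. mt-Co1, a cytochrome oxidase subunit, had 24038, 35794, 24729 and 18697 CPM on chow and 10935, 10676, 14357 and 14502 CPM on HFD. For mt-Co1 this was a log2 change of −1.03 ± 0.22 (SE; edgeR, adjusted p = 0.0107). mt-Cytb had 10902, 17540, 12299 and 8177 CPM on chow and 4713, 4338, 6055 and 6005 CPM on HFD. For mt-Cytb this was a log2 change of −1.21 ± 0.25 (SE; edgeR, adjusted p = 0.00966). KO chow replicate 2 was the highest library for both, and no HFD library reached the lowest chow library. mt-Nd4, mt-Nd6, mt-Nd2, mt-Nd1 and mt-Nd5 were lower at −1.29, −0.97, −0.91, −0.84 and −0.72 (edgeR adjusted p of 0.00865 to 0.0286), and mt-Nd3, named after its value was seen, at −0.82 (adjusted p = 0.0472). Together the 13 transcripts summed to 46145 to 90046 CPM on chow and 26547 to 36818 CPM on HFD, without overlap. The count of 8 lower was 4 without KO chow replicate 2 or KO HFD replicate 2 and 5 without KO chow replicate 3 or KO HFD replicate 4. It was 2 in libraries with a lymphoid score under 4. The calls of mt-Nd1, mt-Nd2 and mt-Nd5 were each lost when 1 or another of KO chow replicates 1, 2 and 3 and KO HFD replicates 1, 2, 3 and 4 was left out, with an adjusted p reaching 0.099 (without KO HFD replicate 2).

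Of 32 nuclear genes of the respiratory chain, 5 were called lower and 0 higher, with a median of −0.35. All 32 had log2 fold changes below 0. Among all genes tested 12.5% were called and 5.23% were called lower. Cox6c at −0.78 (adjusted p = 0.0192), Ndufv2 at −0.63 (adjusted p = 0.0205), Cox7b at −0.71 (adjusted p = 0.0368), Ndufa10 at −0.52 (adjusted p = 0.0404) and Cox5a at −0.59 (adjusted p = 0.0464) were the called members, each a decrease of less than 1 on the log2 scale. The count of 5 lower was 0 without KO chow replicate 2 or KO HFD replicate 2, 1 without KO HFD replicate 3, 2 without KO chow replicate 1 or 3 or KO HFD replicate 1 or 4, 3 without WT chow replicate 1 or WT HFD replicate 1 or 2 or 3 and 15 without KO chow replicate 4. It was 10 with upper-quartile scaling and 13 with the lymphoid score as a covariate. The calls of Cox6c, Ndufv2, Cox7b, Ndufa10 and Cox5a were each lost when 1 or another of WT chow replicates 1 and 3, WT HFD replicates 1, 2, 3 and 4, KO chow replicates 1, 2 and 3 and KO HFD replicates 1, 2, 3 and 4 was left out, with an adjusted p reaching 0.143 (without KO chow replicate 2). Mitochondrial fatty acid oxidation (23 genes) had 4 lower and 1 higher, with a median of −0.25. Ppara, the receptor that switches on fatty acid oxidation, had 19.8, 25.8, 22.3 and 12.9 CPM on chow and 8.43, 7.27, 6.82 and 6.69 CPM on HFD. For Ppara this was a log2 change of −1.47 ± 0.22 (SE; edgeR, adjusted p = 0.00218). Cpt1a, the liver-type enzyme that admits fatty acids to mitochondria, went the other way, with 75.5, 61.0, 68.4 and 108 CPM on chow and 140.1, 150.2, 184 and 166 CPM on HFD. For Cpt1a this was a log2 change of 1.03 ± 0.20 (SE; edgeR, adjusted p = 0.00644). The count of 4 lower was 1 without KO chow replicate 2 or 3 or KO HFD replicate 1 or 2 or 3 or 4 and 2 without WT chow replicate 1 or 2 or WT HFD replicate 2 or 3 or KO chow replicate 1. Acaa2 at −0.71 (adjusted p = 0.033), Pdk4 at −1.12 (adjusted p = 0.0448) and Hadhb at −0.78 (adjusted p = 0.0494) were lower. The calls of Acaa2, Pdk4 and Hadhb were each lost when 1 or another of WT chow replicates 1 and 2, WT HFD replicates 1, 2, 3 and 4, KO chow replicates 1, 2 and 3 and KO HFD replicates 1, 2, 3 and 4 was left out, with an adjusted p reaching 0.171 (without KO chow replicate 2).

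Peroxisomes shorten very long and branched fatty acids. Of 20 peroxisomal genes 2 were higher and 1 lower, with a median of −0.05. These counts lie near the shares over all genes tested, 7.28% higher and 5.23% lower. Acaa1b, a peroxisomal thiolase, rose from 37.1 ± 11.2 to 76.8 ± 8.81 CPM (SD, n = 4; edgeR adjusted p = 0.00432), and Hsd17b4 stood at 0.59 (adjusted p = 0.015). Acox2, an oxidase of bile acid intermediates and branched fatty acids, had 53 counts on chow and 1 on HFD, or 50.1 times as much on chow (counting interval 8.61 to 2020). The call of Hsd17b4 was lost when 1 or another of KO chow replicate 3 and KO HFD replicate 2 was left out, with an adjusted p reaching 0.057 (without KO HFD replicate 2). Acaa1b has a near-identical neighbour, Acaa1a, so the share of reads given to each is uncertain.

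Calls in fat storage and uptake came to 4 of 27 and 3 of 18 genes, against 12.5% of all genes tested. Of the 27 genes of triglyceride synthesis, storage and lipolysis, 2 were higher and 2 lower, with a median of 0.03 that was −0.03 with upper-quartile scaling. Cidec, which fuses lipid droplets in white fat, had 2114, 2617, 2126 and 2865 CPM on chow and 2883, 3850, 4287 and 3681 CPM on HFD. For Cidec this was a log2 change of 0.60 ± 0.15 (SE; edgeR, adjusted p = 0.0228). Mgll, the monoglyceride lipase, was higher at 0.65 (adjusted p = 0.0195), and Mogat1 was lower at −0.76 (adjusted p = 0.0233), as was Cidea. The count of 2 higher was 0 without KO chow replicate 3 or KO HFD replicate 2 or 3, 1 without KO chow replicate 1 or KO HFD replicate 4 and 5 without KO chow replicate 4 or KO HFD replicate 1. The calls of Cidec, Mgll and Mogat1 were each lost when 1 or another of KO chow replicates 1, 2 and 3 and KO HFD replicates 2, 3 and 4 was left out, with an adjusted p reaching 0.082 (without KO HFD replicate 3). Of the 18 genes of fatty acid uptake and binding, 2 were higher and 1 lower, with a median of 0.30. Angptl4, a secreted inhibitor of lipoprotein lipase, had 266, 232, 223 and 488 CPM on chow and 585, 813, 957 and 775 CPM on HFD, a log2 change of 1.37 ± 0.34 (SE; edgeR, adjusted p = 0.0195), and the lipoprotein receptor gene Vldlr stood at 0.86 (adjusted p = 0.0238). Slc27a2, a fatty acid transport protein, had 8.81, 16.4, 10.5 and 0.25 CPM on chow and 0.425, 0.267, 0.123 and 0.0697 CPM on HFD, a log2 change of −5.31 ± 1.24 (SE; edgeR, adjusted p = 0.0166), with KO chow replicate 4 inside the range of the HFD libraries. The count of 2 higher was 0 without KO chow replicate 2 or 3 or KO HFD replicate 2 or 3, 1 without KO chow replicate 1 or KO HFD replicate 4 and 4 without KO HFD replicate 1. The calls of Angptl4, Vldlr and Slc27a2 were each lost when 1 or another of KO chow replicates 1, 2 and 3 and KO HFD replicates 2, 3 and 4 was left out, with an adjusted p reaching 0.0773 (without KO chow replicate 3).

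Adipokines, the secreted signals of fat, had 2 members of 18 higher and 2 lower, with a median of 0.22, against 12.5% of all genes called. After Lep the other increase was in Sfrp5, a secreted Wnt inhibitor, with 23.4, 15.6, 25.5 and 139.8 CPM on chow and 327, 314, 278 and 194 CPM on HFD. For Sfrp5 this was a log2 change of 2.45 ± 0.66 (SE; edgeR, adjusted p = 0.031). Nampt, which makes a precursor of NAD and is also secreted, had 123, 239.8, 157 and 126 CPM on chow and 89.2, 97.6, 86.7 and 98.5 CPM on HFD. For Nampt this was a log2 change of −0.80 ± 0.18 (SE; edgeR, adjusted p = 0.0137). Nrg4, a signal from brown and white fat to the liver, was lower at −0.76 (adjusted p = 0.0199). Adipoq, the adiponectin gene, was not called at 0.18 (adjusted p = 0.509). The calls of Sfrp5 and Nrg4 were each lost when 1 or another of KO chow replicates 1, 2 and 3 and KO HFD replicates 2, 3 and 4 was left out, with an adjusted p reaching 0.0939 (without KO chow replicate 3). Adipocyte transcription factors had 1 of 21 members higher and 1 lower, with a median of −0.06, against 12.5% of all genes called. The called members were Ppara and Zfp423, a factor of early adipocyte commitment at 0.64 (edgeR adjusted p = 0.014). Pparg stood at −0.29 (edgeR adjusted p = 0.253) and Cebpa at −0.05 (edgeR adjusted p = 0.844). The call of Zfp423 was lost without KO chow replicate 3 (adjusted p = 0.052).

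Sterol synthesis showed 4 of 21 genes higher and 1 lower, with a median of 0.28, against 7.28% higher and 5.23% lower over all genes. Hmgcs1, which makes the precursor of mevalonate, had 173, 270.2, 193 and 379 CPM on chow and 451, 789, 741 and 836 CPM on HFD, a log2 change of 1.47 ± 0.28 (SE; edgeR, adjusted p = 0.00707), without overlap. Hsd17b7 and Mvk were higher at 1.0003 and 0.63 and the squalene synthase gene Fdft1 lower at −0.67 (edgeR adjusted p of 0.0348 to 0.0473). The count of 4 higher was 1 without WT chow replicate 1 or WT HFD replicate 2 or 3 or KO chow replicate 1 or 2 or 3 or KO HFD replicate 2 or 3 or 4 and 2 without WT HFD replicate 1. The calls of Hsd17b7, Mvk and Fdft1 were each lost when 1 or another of WT chow replicate 1, WT HFD replicates 1, 2, 3 and 4, KO chow replicates 1, 2, 3 and 4 and KO HFD replicates 1, 2, 3 and 4 was left out, with an adjusted p reaching 0.145 (without KO HFD replicate 3).

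**Figure D3:**
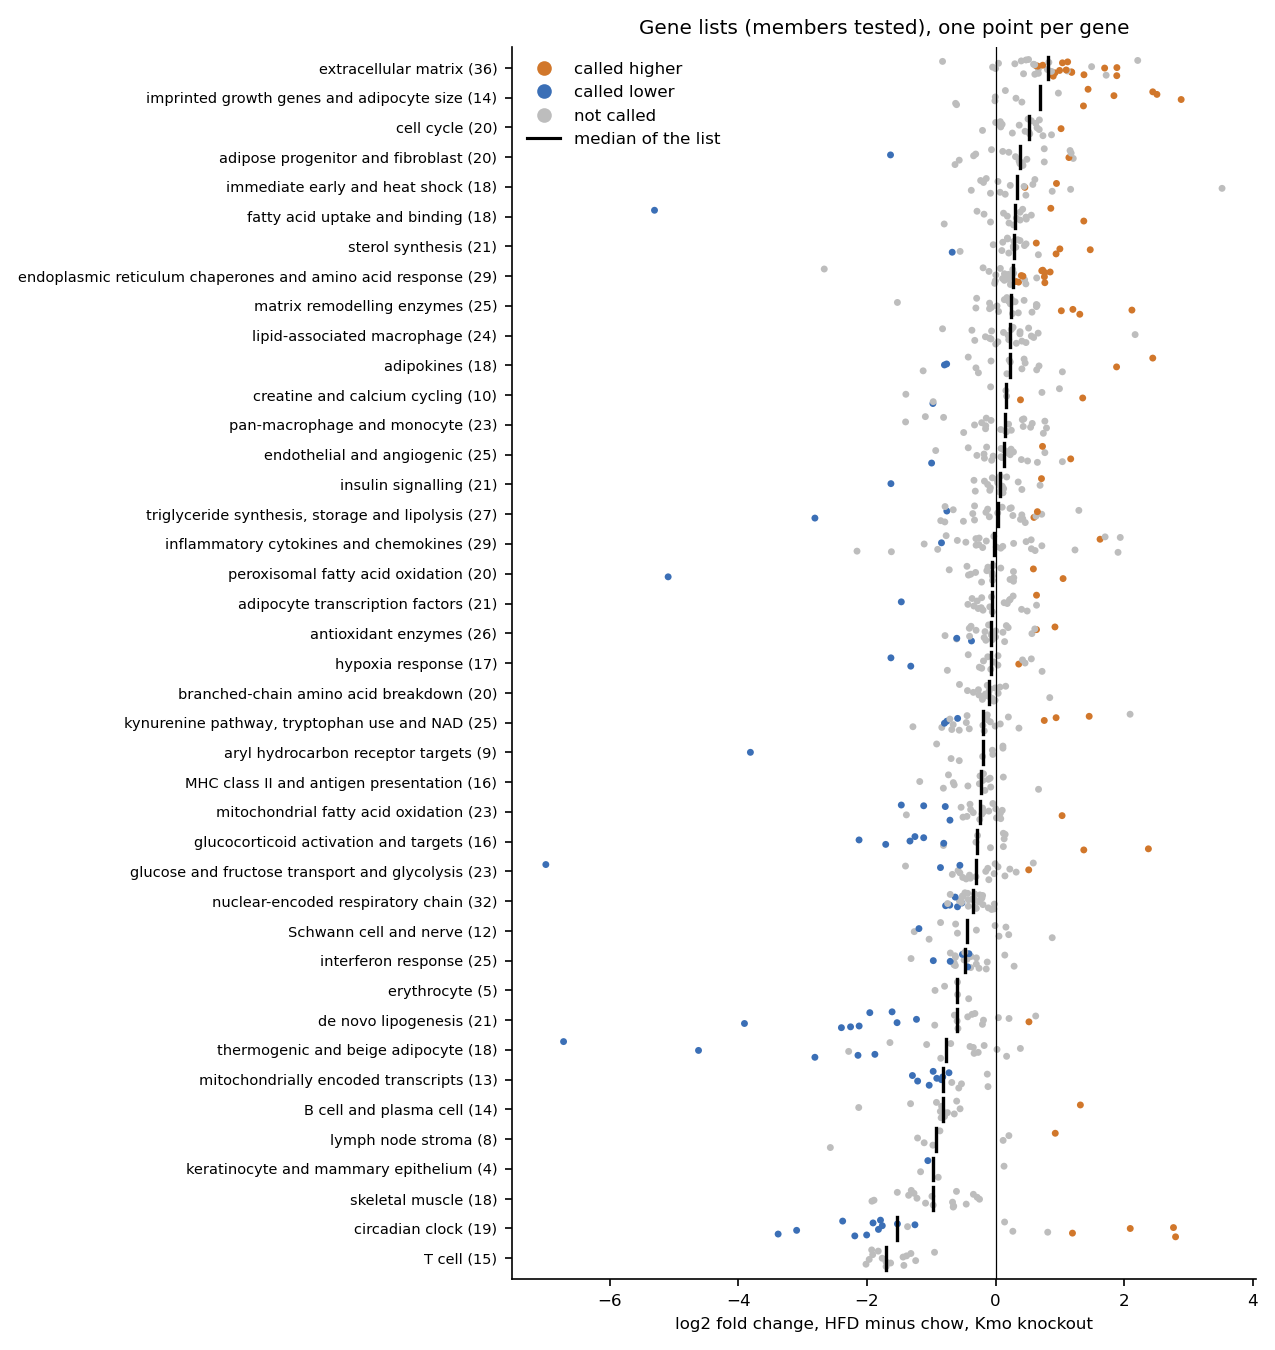
Log2 fold change of HFD against chow in KO for each tested member of 41 gene lists, ordered by the list's median (black bar); the number of members tested is in brackets, and orange, blue and grey points are genes called higher, called lower and not called. Extracellular matrix (median 0.82) lies at the top with 15 orange points, and the circadian clock list (median −1.53) holds 11 blue and 4 orange points while the T cell list below it (median −1.70) holds no called gene.

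Imprinted genes, read from the copy of 1 parent, include growth regulators that mark the size of mouse adipocytes. Of 14 members of a list of such genes and of genes tied to adipocyte size, 6 were called higher and 0 lower, with a median of 0.69. Mest, the best known of these markers, had 36.2, 16.1, 17.4 and 246 CPM on chow and 429, 579, 762 and 568 CPM on HFD. For Mest this was a log2 change of 2.89 ± 0.78 (SE; edgeR, adjusted p = 0.0311). Peg3, a paternally expressed zinc finger gene, had 46.4, 58.3, 48.5 and 96.2 CPM on chow and 471, 243, 330.0 and 378 CPM on HFD. For Peg3 this was a log2 change of 2.51 ± 0.39 (SE; edgeR, adjusted p = 0.00389). The chow libraries of Mest were split, with KO chow replicate 4 at 246.1 CPM and the others at 16.1 to 36.2, whereas the 4 HFD libraries of Peg3 all lay more than 2-fold above all chow libraries. Trp53inp2 had 429, 684, 561 and 1026 CPM on chow and 1342, 2019, 1994 and 1965 CPM on HFD. For Trp53inp2 this was a log2 change of 1.44 ± 0.23 (SE; edgeR, adjusted p = 0.00389). Bmp3, a bone morphogenetic protein, was higher at 1.37 (adjusted p = 0.00927), Peg10 at 1.84 (adjusted p = 0.0156), and Sfrp5 as given above. Zim1, a zinc finger gene of the same imprinted cluster as Peg3 that is not on the list, had 2.20, 2.98, 1.87 and 3.50 CPM on chow and 28.7, 11.5, 19.8 and 16.3 CPM on HFD. For Zim1 this was a log2 change of 2.85 ± 0.46 (SE; edgeR, adjusted p = 0.00404). Not called were Plagl1 at 0.98 (adjusted p = 0.0566), Grb10 at 0.41 (adjusted p = 0.078) and Dlk1, an inhibitor of fat cell formation, at −0.62 (adjusted p = 0.5). The count of 6 higher was 3 without KO chow replicate 3. The calls of Mest, Sfrp5 and Peg10 were each lost when 1 or another of KO chow replicates 1, 2 and 3 and KO HFD replicates 2, 3 and 4 was left out, with an adjusted p reaching 0.0939 (without KO chow replicate 3).

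The extracellular matrix around adipocytes is built of collagens, elastic fibres, laminins and proteoglycans. Of 36 of its genes tested, 15 were called higher and 0 lower, 34 of the 36 had log2 fold changes above 0, and the median was 0.82. Eln, the elastin gene, had 76.4, 45.2, 42.8 and 80.5 CPM on chow and 174, 231, 206 and 183 CPM on HFD. For Eln this was a log2 change of 1.70 ± 0.22 (SE; edgeR, adjusted p = 0.00159). Col12a1, a fibril-associated collagen, had 9.62, 4.34, 9.25 and 15.1 CPM on chow and 32.3, 39.1, 42.7 and 27.8 CPM on HFD. For Col12a1 this was a log2 change of 1.89 ± 0.32 (SE; edgeR, adjusted p = 0.00446). Nid1, which links laminin and collagen in basement membranes, had 638, 479, 374 and 728 CPM on chow and 1078, 1107, 1205 and 1173 CPM on HFD. For Nid1 this was a log2 change of 1.04 ± 0.24 (SE; edgeR, adjusted p = 0.0131). None of these 3 overlapped between the diets, and KO chow replicate 4 was the highest of the chow libraries in each. The proteoglycan gene Bgn stood at 0.90 (adjusted p = 0.0139), Col5a1 at 1.18 (adjusted p = 0.0192), Col6a2 at 1.10 (adjusted p = 0.0231) and Sparc, a collagen-binding protein, at 1.12 (adjusted p = 0.0245). The other 8 called members, named after their values were seen, were the basement membrane genes Col4a1, Col4a2, Col15a1, Lama4, Lamb1 and Lamc1, with Col6a1 and Fbn1, at 0.63 (Lamb1) to 1.89 (Fbn1). The summed level of the 36 genes was 9053 to 21452 CPM on chow and 23179 to 30606 CPM on HFD. The count of 15 higher was 3 without KO chow replicate 3, 4 without KO chow replicate 2 or KO HFD replicate 2 or 3 and 5 without KO HFD replicate 4. The calls of Bgn, Col5a1, Col6a2 and Sparc were each lost when 1 or another of KO chow replicates 2 and 3 and KO HFD replicates 2, 3 and 4 was left out, with an adjusted p reaching 0.0775 (without KO HFD replicate 3).

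Enzymes that cut or modify the matrix had 4 of 25 members higher and 0 lower, with a median of 0.24, against 7.28% of all genes called higher. Adamts4, a protease of cartilage proteoglycans, had 2.83, 1.56, 1.21 and 2.50 CPM on chow and 2.41, 12.7, 9.03 and 11.2 CPM on HFD, a log2 change of 2.12 ± 0.48 (SE; edgeR, adjusted p = 0.0128); KO HFD replicate 1 lay within the chow range and the other 3 HFD libraries at 9.03 or above. Adam12 at 1.31 (adjusted p = 0.0142), Adamts2 at 1.02 (adjusted p = 0.0199) and Adamts5 at 1.20 (adjusted p = 0.0319) were also higher. The count of 4 higher was 1 without KO chow replicate 3 or KO HFD replicate 3 and 2 without KO chow replicate 2 or KO HFD replicate 2. The calls of Adam12, Adamts2 and Adamts5 were each lost when 1 or another of KO chow replicates 1, 2 and 3 and KO HFD replicates 2, 3 and 4 was left out, with an adjusted p reaching 0.0914 (without KO chow replicate 3). Markers of adipose progenitors and fibroblasts, the cells that make much of the matrix, had 1 of 20 higher (Fbln2, 1.14, adjusted p = 0.00777) and 1 lower (Lrrc15, −1.63, adjusted p = 0.0124), with a median of 0.37 and against 12.5% of all genes called. Their summed level was 7229 to 10927 CPM on chow and 9438 to 14406 CPM on HFD, overlapping, and its part in the matrix result was not tested. Endothelial and angiogenic genes had 2 of 25 members higher and 1 lower, with a median of 0.13, against 12.5% of all genes called. The tight junction gene Cldn5 was higher at 1.17 (edgeR adjusted p = 0.0156) and Vwf at 0.73 (edgeR adjusted p = 0.0199). Angpt1 was lower at −0.995 (edgeR adjusted p = 0.0496). The calls of Cldn5, Vwf and Angpt1 were each lost when 1 or another of WT chow replicates 1, 2 and 3, WT HFD replicates 2 and 3, KO chow replicates 1, 2 and 3 and KO HFD replicates 1, 2, 3 and 4 was left out, with an adjusted p reaching 0.14 (without KO chow replicate 2).

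Immune cells of the depot were followed by lists of marker genes. Of 23 macrophage and monocyte genes edgeR called 0 (0 at an unadjusted p under 0.05, 0 by DESeq2 and limma-voom, median 0.15). Of 24 genes of lipid-associated macrophages edgeR called 0 (3 at an unadjusted p under 0.05, 1 higher by DESeq2 and 3 by limma-voom, median 0.22); Adgre1, which encodes the macrophage marker F4/80, stood at 0.74 (adjusted p = 0.283) and Trem2 at 0.51 (adjusted p = 0.507). Without KO chow replicate 4, 5 of these 24 genes were called higher, and 1 without KO HFD replicate 1 or WT chow replicate 4. MHC class II and antigen presentation genes (16) and T cell genes (15) had 0 calls by edgeR, DESeq2 and limma-voom and 0 members at an unadjusted edgeR p under 0.05, with medians of −0.22 and −1.70. T cell genes summed to 25.0 to 625.0 CPM on chow and 17.2 to 270.5 CPM on HFD and were high in the 3 libraries with a lymphoid score above 4. Of 14 B cell and plasma cell genes 1 was called: Ighm, the heavy chain of IgM, had 628, 314, 376 and 759 CPM on chow and 1143, 1243, 1539 and 1256 CPM on HFD. For Ighm this was a log2 change of 1.32 ± 0.26 (SE; edgeR, adjusted p = 0.00729). Its order over the libraries was not that of the lymphoid score: KO chow replicates 2 and 3, with scores of 1.59 and 5.49, had the lowest Ighm of all. Of 8 lymph node stroma genes 1 was higher, Mfge8 at 0.93 (adjusted p = 0.0326), with a median of −0.92. The counts of 1 in 14 and 1 in 8 stand beside 12.5% of all genes called. The call of Mfge8 was lost when 1 or another of KO chow replicates 1, 2 and 3 and KO HFD replicates 1, 2 and 3 was left out, with an adjusted p reaching 0.0994 (without KO HFD replicate 3).

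Of 29 inflammatory cytokine and chemokine genes, 1 was higher and 1 lower, with a median of −0.03, against 12.5% of all genes called. Lbp, which binds bacterial lipopolysaccharide, was higher at 1.63 (adjusted p = 0.0359). Cxcl9, a chemokine induced by interferon gamma, had 37.8, 37.1, 52.7 and 41.4 CPM on chow and 20.3, 22.6, 26.5 and 24.9 CPM on HFD. For Cxcl9 this was a log2 change of −0.84 ± 0.21 (SE; edgeR, adjusted p = 0.0199). Ccl2, a monocyte attractant, was not called at 1.91 (adjusted p = 0.0731). Interferon response genes had 5 of 25 members lower and 0 higher, with a median of −0.48, against 5.23% of all genes called lower. Irf7, a regulator of type I interferon, had 67.0, 38.4, 47.4 and 35.6 CPM on chow and 27.5, 26.8, 17.1 and 24.97 CPM on HFD. For Irf7 this was a log2 change of −0.97 ± 0.23 (SE; edgeR, adjusted p = 0.015). Irf1 at −0.71 (adjusted p = 0.0231), Stat2 at −0.41 (adjusted p = 0.035) and Gbp7 at −0.43 (adjusted p = 0.0458) were lower too. The lymphoid score was above 4 in 2 of the 4 chow libraries and 1 of the 4 HFD libraries. In the fit on libraries with a score under 4, which called 768 genes in all against 2071, edgeR called 0 of the 25, with a list median of −0.29. The count of 5 lower was 1 without KO chow replicate 3 or KO HFD replicate 3, 2 without KO HFD replicate 4 and 3 without KO chow replicate 1 or 2. The calls of Lbp, Cxcl9, Irf7, Irf1, Stat2 and Gbp7 were each lost when 1 or another of WT chow replicate 2, WT HFD replicates 1, 2, 3 and 4, KO chow replicates 1, 2 and 3 and KO HFD replicates 1, 2, 3 and 4 was left out, with an adjusted p reaching 0.139 (without KO chow replicate 3).

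The circadian clock is a feedback loop in which ARNTL (BMAL1) pairs with CLOCK or NPAS2 to switch on Per, Cry, Nr1d and Bhlhe40/41 genes through E-box sequences, and their products then repress it. Dbp, Tef and Hlf, the PAR factors, and their competitor Nfil3 act on D-box sequences downstream. In the 19 clock genes tested, 15 were called, 4 higher and 11 lower, with a median of −1.53. The activators rose: Arntl had 9.69, 2.24, 3.63 and 3.44 CPM on chow and 15.01, 45.4, 32.8 and 39.4 CPM on HFD. For Arntl this was a log2 change of 2.80 ± 0.53 (SE; edgeR, adjusted p = 0.00725). Clock had 67.2, 62.5, 47.6 and 61.9 CPM on chow and 102.5, 147, 149 and 150.2 CPM on HFD. For Clock this was a log2 change of 1.20 ± 0.17 (SE; edgeR, adjusted p = 0.00203). For both, the HFD library nearest to chow was KO HFD replicate 1, and the groups did not overlap. Npas2 at 2.77 (adjusted p = 0.0336) and Nfil3 at 2.10 (adjusted p = 0.0265) were the other increases, and both were near their chow level in KO HFD replicate 1 (0.991 and 5.81 CPM).

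Among the repressors, Ciart, a repressor of ARNTL and CLOCK, had 6.67, 9.16, 13.7 and 11.3 CPM on chow and 1.77, 0.734, 0.491 and 0.907 CPM on HFD. For Ciart this was a log2 change of −3.38 ± 0.43 (SE; edgeR, adjusted p = 0.00159). Bhlhe40 had 157, 179, 101 and 146 CPM on chow and 36.4, 25.6, 38.1 and 27.5 CPM on HFD. For Bhlhe40 this was a log2 change of −2.19 ± 0.27 (SE; edgeR, adjusted p = 0.00159). Bhlhe41 had 49.8, 66.3, 45.6 and 62.8 CPM on chow and 18.5, 12.7, 12.5 and 12.3 CPM on HFD. For Bhlhe41 this was a log2 change of −2.01 ± 0.28 (SE; edgeR, adjusted p = 0.00203). The groups did not overlap in any of these 3, and KO HFD replicate 1 was the HFD library nearest to chow for Ciart and Bhlhe41. Per1 had 83.2, 66.7, 74.5 and 113 CPM on chow and 41.7, 25.5, 39.7 and 34.4 CPM on HFD, a log2 change of −1.25 ± 0.30 (SE; edgeR, adjusted p = 0.0169), and Per2 and Per3 were lower at −1.53 (adjusted p = 0.0219) and −1.91 (adjusted p = 0.0105). Of the PAR factors Tef had 232, 420.3, 399.5 and 327 CPM on chow and 147, 74.9, 84.3 and 92.6 CPM on HFD, a log2 change of −1.79 ± 0.32 (SE; edgeR, adjusted p = 0.00565), Hlf stood at −1.82 (adjusted p = 0.00389) and Dbp at −3.09 (adjusted p = 0.0167). Nr1d2, which encodes REV-ERB beta, was lower at −1.76 (adjusted p = 0.0142). Nr1d1 at −1.37 (adjusted p = 0.0821), Cry1 at 0.81 (adjusted p = 0.0807), Cry2 at 0.27 (adjusted p = 0.17) and Rora at 0.14 (adjusted p = 0.573) were not called. Npas2, Nfil3, Per2, Per3, Dbp and Nr1d2 are given here beyond the rule for named genes, after their values were seen. The count of 11 lower was 8 to 12 without any single library. The count of 4 higher was 2 without KO chow replicate 2 or 3 or KO HFD replicate 2 or 3 or 4. The call of Per1 was lost without KO HFD replicate 2 (adjusted p = 0.0611).

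**Figure D4:**
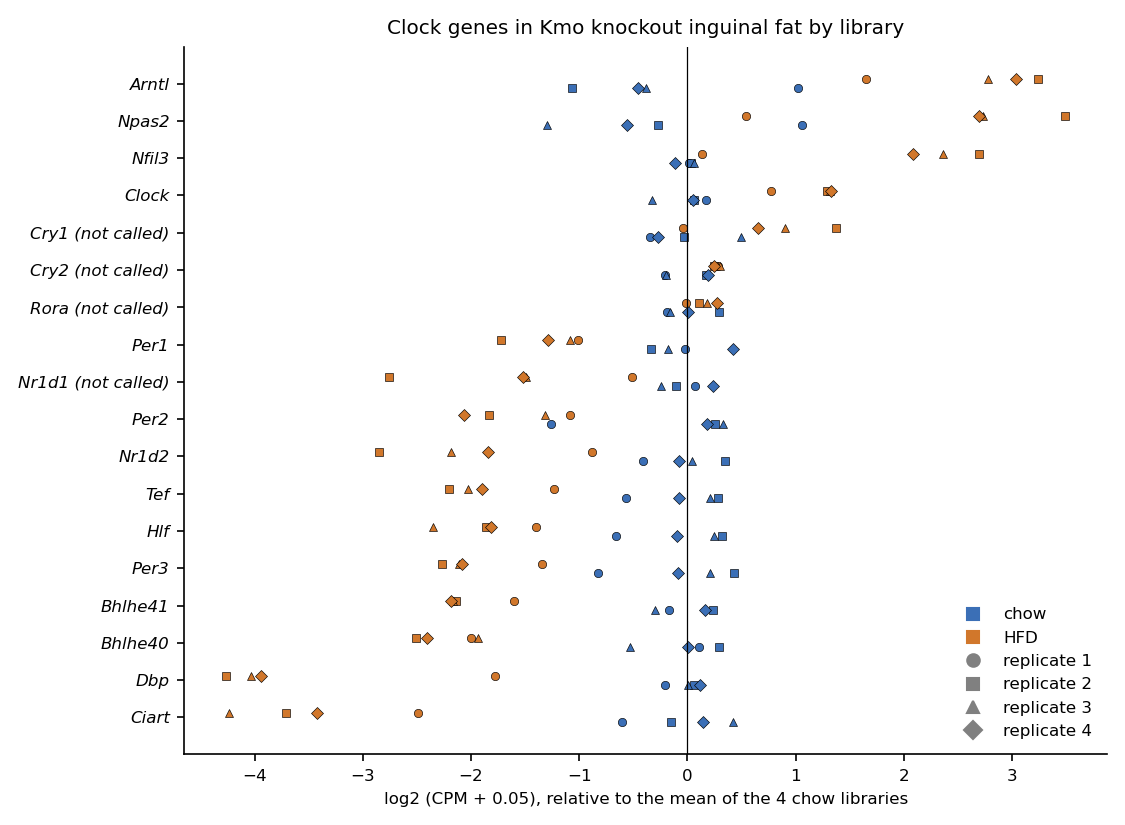
Expression of 18 of the 19 clock genes in each KO library as log2 (CPM + 0.05) relative to the mean of the 4 chow libraries (blue, chow; orange, HFD; a symbol shape per replicate). Arntl and Clock lie to the right on HFD and Ciart, Dbp and Bhlhe40 to the left, with the circle of KO HFD replicate 1 nearest to chow in most genes.

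The promoters of the repressors and PAR factors show where the E-box occurs. Of the 19 clock genes 16 had entries in the RefSeq promoter table (GRCm38.p6). The E-box searched was CACGTG, which reads the same on both strands, in the 250 bases before a gene's start. It was found in 5 of the 16 clock genes with an entry. These were 4 of the 8 called lower, 0 of the 4 called higher, and a gene that was not called. The share was 9.47% of the 11782 genes of the table that matched a tested gene. Among all called genes with an entry, the share was 10.5% of 923 called higher and 11.4% of 616 called lower. The D-box TTATGTAA, searched on both strands, was in 0.645% of these and stood at 2 places in Per3. The half-site TAGGTCA, bound by ROR and REV-ERB proteins, was in 236 of the 11782 genes and in Nfil3 among the clock genes. The sterol response element TCACNCCAC, searched on both strands, was in 147 of the 11782 genes and in 0 of the 16 clock genes; among 19 lipogenesis genes with an entry 1, Mlxipl, held it. A gene with several entries counted once if any of them held the motif. A match is a description of these letters and shows no binding. In the RefSeq gene table the start that the Per1 window precedes lies inside the span of the gene, 3841 bases from its 5′ end. The windows follow 5′ to 3′ on the strand of the gene, with the motif in capitals: the E-box in Ciart, Bhlhe41, Tef and Per1 and the D-box in Per3, shown because these are the clock genes called lower that hold one.

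Ciart (chr3:95882229-95882478, minus strand): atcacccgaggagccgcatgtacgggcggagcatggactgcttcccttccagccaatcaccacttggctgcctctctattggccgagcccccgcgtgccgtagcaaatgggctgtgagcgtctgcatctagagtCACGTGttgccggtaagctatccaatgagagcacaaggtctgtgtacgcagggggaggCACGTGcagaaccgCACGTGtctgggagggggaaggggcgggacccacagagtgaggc
Bhlhe41 (chr6:145865421-145865670, minus strand): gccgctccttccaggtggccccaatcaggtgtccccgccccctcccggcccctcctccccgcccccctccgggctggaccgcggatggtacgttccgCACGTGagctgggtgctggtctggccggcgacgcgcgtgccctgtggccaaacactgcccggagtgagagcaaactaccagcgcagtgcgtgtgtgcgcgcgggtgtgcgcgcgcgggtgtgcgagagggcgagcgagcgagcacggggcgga
Tef (chr15:81802423-81802672, plus strand): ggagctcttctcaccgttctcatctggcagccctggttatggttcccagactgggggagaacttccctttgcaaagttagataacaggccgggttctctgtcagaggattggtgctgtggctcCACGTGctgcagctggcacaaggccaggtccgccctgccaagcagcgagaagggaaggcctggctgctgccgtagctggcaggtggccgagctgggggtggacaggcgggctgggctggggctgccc
Per1 (chr11:69098699-69098948, plus strand): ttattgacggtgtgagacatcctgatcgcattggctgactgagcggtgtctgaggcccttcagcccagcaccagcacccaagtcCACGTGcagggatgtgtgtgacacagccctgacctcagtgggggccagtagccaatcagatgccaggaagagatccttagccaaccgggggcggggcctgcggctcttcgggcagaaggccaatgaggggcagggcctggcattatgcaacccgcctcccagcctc
Per3 (chr4:151044666-151044915, minus strand): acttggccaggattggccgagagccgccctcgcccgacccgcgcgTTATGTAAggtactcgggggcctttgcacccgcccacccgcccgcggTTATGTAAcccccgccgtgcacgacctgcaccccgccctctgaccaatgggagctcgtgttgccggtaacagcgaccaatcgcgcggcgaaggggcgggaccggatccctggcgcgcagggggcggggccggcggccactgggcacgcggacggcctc

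Glucocorticoids act on fat through targets that include clock genes. Of 16 genes of glucocorticoid activation and targets, 2 were higher and 6 lower, with a median of −0.29. Over all genes 7.28% were called higher and 5.23% lower. Hsd11b1, which regenerates active glucocorticoid inside the cell, had 264, 440.3, 288 and 162 CPM on chow and 82.1, 78.3, 82.7 and 110.2 CPM on HFD. For Hsd11b1 this was a log2 change of −1.71 ± 0.23 (SE; edgeR, adjusted p = 0.00183). Cdkn1a, the cell cycle inhibitor p21, had 24.6, 17.9, 17.2 and 40.7 CPM on chow and 85.7, 155, 154 and 127 CPM on HFD. For Cdkn1a this was a log2 change of 2.38 ± 0.35 (SE; edgeR, adjusted p = 0.00277). Klf9 had 167, 204, 168 and 174 CPM on chow and 110.0, 92.9, 105 and 99.4 CPM on HFD. For Klf9 this was a log2 change of −0.81 ± 0.15 (SE; edgeR, adjusted p = 0.00687). The groups did not overlap in these 3. The metallothionein gene Mt1 was lower at −1.33 (adjusted p = 0.00927), and Mt2 at −2.12 (adjusted p = 0.0223); Per1, Pdk4 and Angptl4 belong to this list too and are given above. The count of 6 lower was 3 without KO HFD replicate 2. The calls of Per1 and Angptl4 were each lost when 1 or another of KO chow replicates 2 and 3 and KO HFD replicates 2 and 3 was left out, with an adjusted p reaching 0.0682 (without KO chow replicate 3).

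The pathway that Kmo belongs to breaks tryptophan down to kynurenine and on towards NAD, which is also made from nicotinamide by salvage. Of 25 genes tested, 3 were higher and 3 lower, with a median of −0.20, against 7.28% higher and 5.23% lower over all genes. Ido1, Ido2, Aadat and Acmsd had too few counts to be tested. The called genes were Slc3a2 and Slc7a8 of amino acid transport, Nampt and Nmnat3 of NAD synthesis, and Sirt1 and Nnmt, which use NAD and nicotinamide. Slc3a2, the heavy chain shared by large amino acid transporters, had 79.7, 78.3, 79.4 and 123 CPM on chow and 134, 210.5, 183 and 164 CPM on HFD, a log2 change of 0.94 ± 0.17 (SE; edgeR, adjusted p = 0.00519), and its partner Slc7a8 was higher at 1.46 (adjusted p = 0.0199). Nmnat3, the mitochondrial enzyme that makes NAD, had 15.2, 18.9, 14.2 and 11.7 CPM on chow and 9.06, 8.48, 9.09 and 8.86 CPM on HFD. For Nmnat3 this was a log2 change of −0.76 ± 0.15 (SE; edgeR, adjusted p = 0.0085). Sirt1, an NAD-dependent deacetylase, had 24.97, 30.3, 34.1 and 24.8 CPM on chow and 21.9, 17.02, 17.7 and 19.1 CPM on HFD. For Sirt1 this was a log2 change of −0.59 ± 0.12 (SE; edgeR, adjusted p = 0.00987). Nampt fell as given above, and Nnmt, which methylates nicotinamide, was higher at 0.76 (adjusted p = 0.0456). The count of 3 higher was 1 without KO chow replicate 2 or 3 or KO HFD replicate 3. The count of 3 lower was 5 without KO HFD replicate 1. The calls of Slc7a8 and Nnmt were each lost when 1 or another of WT chow replicates 1 and 2, WT HFD replicates 1, 2, 3 and 4, KO chow replicates 1, 2 and 3 and KO HFD replicates 2, 3 and 4 was left out, with an adjusted p reaching 0.137 (without KO chow replicate 3). Of the breakdown genes, Haao had 13.8, 2.71, 19.8 and 2.25 CPM on chow and 18.1, 1.07, 1.23 and 1.26 CPM on HFD, at −0.84 (adjusted p = 0.664), and Kynu had 3.02, 0.136, 3.51 and 0.0625 CPM on chow and 3.96, 0.133, 0 and 0.209 CPM on HFD, at −0.66 (adjusted p = 0.797). Both were high in the 3 libraries with a lymphoid score above 4 and low in the other 5, on either diet. Tph2, which makes serotonin from tryptophan, was not called at 2.09 (adjusted p = 0.158). Kmo was not called at −1.29 (adjusted p = 0.364), at counts of 1 to 8. Kynurenine is a ligand of the aryl hydrocarbon receptor: of 9 targets and partners of that receptor 1 was called, Cyp1a1, with 1.64, 1.97, 1.51 and 1.001 CPM on chow and 0.212, 0.0667, 0.0614 and 0.0697 CPM on HFD. For Cyp1a1 this was a log2 change of −3.81 ± 0.67 (SE; edgeR, adjusted p = 0.00481). Tiparp at 0.11 (adjusted p = 0.704) and Cyp1b1 at −0.05 (adjusted p = 0.912) were not. The 1 call among 9 genes stands beside 12.5% of all genes called.

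Chaperones of the endoplasmic reticulum and genes of the amino acid response had 10 of 29 members higher and 0 lower, with a median of 0.27. Hspa5, the chaperone BiP, had 299, 366, 292 and 386 CPM on chow and 443, 687, 544 and 599 CPM on HFD. For Hspa5 this was a log2 change of 0.76 ± 0.17 (SE; edgeR, adjusted p = 0.0113). Psat1, an enzyme of serine synthesis, had 102.2, 107, 85.8 and 159 CPM on chow and 182, 221, 213 and 203 CPM on HFD. For Psat1 this was a log2 change of 0.85 ± 0.19 (SE; edgeR, adjusted p = 0.0119). Both kept HFD libraries above all chow libraries, by a margin that was small for KO HFD replicate 1. Phgdh at 0.77 (adjusted p = 0.0188), Hyou1 at 0.43 (adjusted p = 0.0191), Atf5 at 0.77 (adjusted p = 0.0208) and Sesn2 at 0.73 (adjusted p = 0.0326) were higher too, as were Canx, Calr, Manf and Sdf2l1 at 0.32, 0.36, 0.40 and 0.72, named after their values were seen. The count of 10 higher was 2 without KO chow replicate 3 or KO HFD replicate 2 or 4, 3 without KO chow replicate 2, 4 without KO HFD replicate 3 and 6 without KO chow replicate 1. It was 6 with upper-quartile scaling. The calls of Phgdh, Hyou1, Atf5 and Sesn2 were each lost when 1 or another of KO chow replicates 1, 2 and 3 and KO HFD replicates 2, 3 and 4 was left out, with an adjusted p reaching 0.0973 (without KO HFD replicate 3).

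Antioxidant enzymes and hypoxia genes had 4 of 26 and 3 of 17 members called, near the 12.5% of all genes tested. Antioxidant enzymes (26, median −0.07) had 2 higher, with Prdx5 at 0.64 (adjusted p = 0.0138) and Sod3 at 0.92 (adjusted p = 0.0361), and 2 lower, with Gclc at −0.37 (adjusted p = 0.0296) and Gpx4 at −0.60 (adjusted p = 0.0436). Hypoxia genes (17, median −0.07) had 1 higher, Ero1l at 0.36 (adjusted p = 0.0497), and 2 lower, Pdk1 and Egln3, the latter at −1.32 (adjusted p = 0.0119). Immediate early and heat shock genes (18, median 0.34) had 2 higher, Hsp90aa1 at 0.46 (adjusted p = 0.0402) and Hsph1 at 0.95 (adjusted p = 0.0463), and 0 lower. The calls of Sod3, Gclc, Gpx4, Ero1l, Hsp90aa1 and Hsph1 were each lost when 1 or another of WT chow replicates 1, 2 and 4, WT HFD replicates 1, 2, 3 and 4, KO chow replicates 1, 2, 3 and 4 and KO HFD replicates 1, 2, 3 and 4 was left out, with an adjusted p reaching 0.15 (without KO HFD replicate 2). Cell cycle genes (20, median 0.51) had 1 higher, Cdk1 at 1.02 (adjusted p = 0.0167). Over all genes 7.28% were called higher and 5.23% lower. Nerve and Schwann cell genes (12, median −0.45) had 1 lower, and the keratinocyte and mammary epithelium list, of which only 4 genes could be tested, had 1 lower, Trp63 at −1.05 (adjusted p = 0.0422). The calls of Cdk1 and Trp63 were each lost when 1 or another of WT HFD replicates 2 and 3, KO chow replicates 1, 2, 3 and 4 and KO HFD replicates 1, 2, 3 and 4 was left out, with an adjusted p reaching 0.118 (without KO HFD replicate 2). Branched-chain amino acid breakdown (20, median −0.10) had 0 calls by edgeR (3 at an unadjusted p under 0.05; 1 lower by DESeq2, 1 higher and 1 lower by limma-voom), as did erythrocyte genes (5, median −0.59; 1 at an unadjusted p under 0.05, 1 lower by each of the other tools). The median of the 18 skeletal muscle genes was −0.98. Without KO chow replicate 4 more members were called higher among adipokines (5 against 2), endothelial genes (4 against 2) and creatine and calcium cycling genes (4 against 2), and branched-chain genes had 1 higher and 2 lower. Without KO chow replicate 1, 3 progenitor and fibroblast genes were called higher against 1, and without WT chow replicate 4, 3 insulin signalling genes against 1.

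The response was then set beside that of WT, which shares no library with it. In WT 1957 genes (11.8%) were called, 1142 (6.90%) higher and 815 (4.92%) lower, of which 1226 were called in KO too: 59.2% of the KO calls and 62.6% of the WT calls. All 1226 had the same direction. Of the WT calls, 1951 (99.7%) had the same sign in KO, with a median change in their WT direction of 0.70 in WT and 0.62 in KO; of the KO calls, 2064 had the same sign in WT, with medians of 0.70 in KO and 0.59 in WT. Since each set was chosen for its change in 1 genotype, these medians do not order the genotypes. Side by side, KO and WT stood at 1.88 and 1.93 for Lep, −3.91 and −3.90 for Elovl6, −7.00 and −7.93 for Slc2a5, −6.72 and −5.54 for Ucp1, 2.80 and 2.57 for Arntl, 1.70 and 1.82 for Eln, and −1.03 and −0.92 for mt-Co1.

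**Figure D5:**
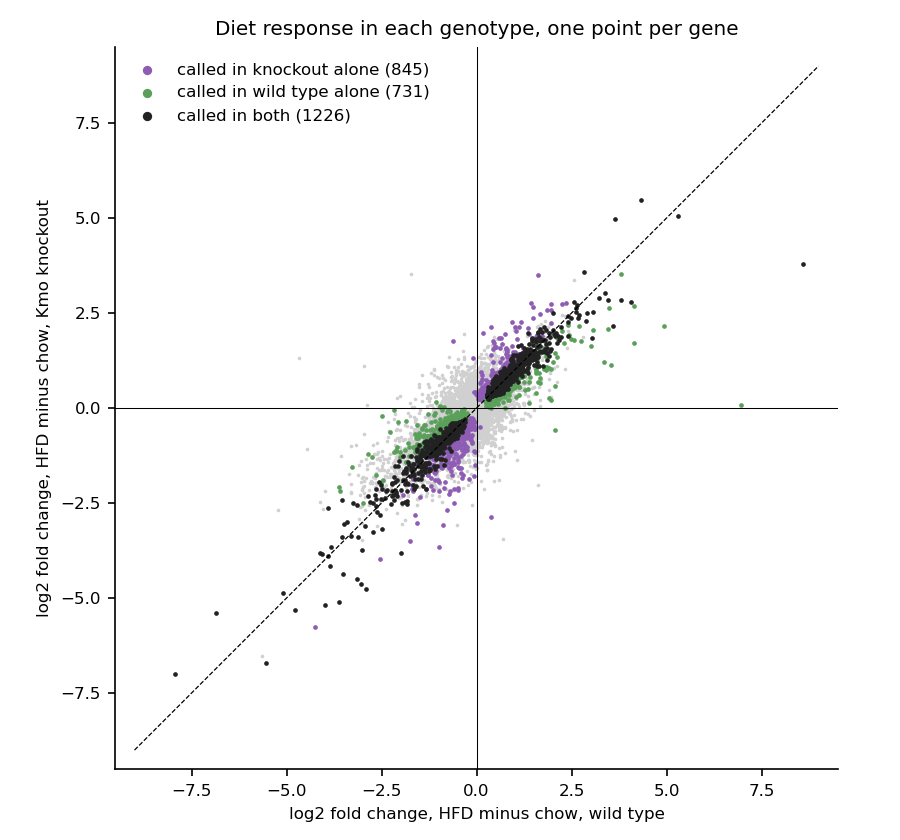
Log2 fold change of HFD against chow in KO (vertical axis) against that in WT (horizontal axis), one point per gene of 16549 tested; black, 1226 genes called in both genotypes, purple, 845 called in KO alone, green, 731 called in WT alone; the dashed line marks equal change. Called genes lie along the dashed line, and the black points fall only in the lower left and upper right.

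The difference of the diet response between the genotypes was tested directly, and 0 genes passed with edgeR, DESeq2 or limma-voom. So no gene of this response was shown to be particular to KO. In these tools 187, 300 and 290 genes had an unadjusted p under 0.05. With no true difference a share of about 0.05 of the genes tested would be expected there, and these counts are lower. The reason was not tested. The half-width of the 95% interval for a KO log2 fold change had a median of 0.44 over genes, and a difference between 2 such values is less precise. The genes with the smallest p for the difference were Gm44256 (1.75 in KO, −0.61 in WT), AC158549.1 (−0.05 and −2.16), Ripply3 (−0.56 and 0.42), Gm37760 (−1.03 and 0.67) and Muc13 (−0.58 and 2.08), all with an edgeR adjusted p of 0.9999 for it. Among genes called in KO and not in WT, the smallest p for the difference belonged to Gm8355 (1.85 in KO and 0.60 in WT), Serpina1d (2.13 and 0.37, of a family of near-identical genes), Tnrc18, Hcfc1, Id1 and Actn2. Id1, an inhibitor of differentiation factors, had 26.0, 32.5, 26.4 and 37.0 CPM on chow and 11.2, 12.3, 17.1 and 11.9 CPM on HFD, a log2 change of −1.21 ± 0.22 (SE; edgeR, adjusted p = 0.00519), and −0.35 in WT. Hcfc1, a transcriptional cofactor, stood at 0.46 and 0.10, and Tnrc18 at 0.67 and 0.09. Actn2, a muscle actinin, stood at −2.85 and 0.38 and was highest in KO chow replicate 4, the KO library with the highest muscle score. The calls of Gm44256 and Actn2 were each lost when 1 or another of KO chow replicates 1, 3 and 4 and KO HFD replicates 1, 2, 3 and 4 was left out, with an adjusted p reaching 0.109 (without KO chow replicate 4). Among genes called in WT and not in KO it belonged to H2afy2 (−0.01 in KO and 0.76 in WT), Adh6b (0.22 and 1.96), Gm47572 (0.03 and −0.97), Smpd2 (0.02 and 0.33), Gm25082 (0.15 and −1.08) and Ralgapa2 (−0.25 and −0.65).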

How the data were processed

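Inguinal fat RNA was enriched for poly-A, made into libraries with a stranded kit and sequenced in paired reads of 150 bases, with an RNA integrity number above 7, per the labels' protocols. The deposited table holds raw counts of read pairs per gene for 16 libraries. The authors aligned reads with STAR 2.7.3a and counted with featureCounts 2.0.3 on GRCm38, without using strand, per the file headers and the submitters' processing notes, so reads of overlapping or antisense genes cannot be told apart. Replicate numbers come from the labels; where animals were not separate, p-values measure only the spread between these libraries.

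Genes passing edgeR's filterByExpr (16549 of 55487) were scaled by TMM and fitted with edgeR 4.0.16 (R 4.3.3): robust quasi-likelihood with 4 group means over all 16 libraries, which share 1 estimate of spread. Contrasts were HFD minus chow in KO, in WT, and their difference; p-values were adjusted by Benjamini-Hochberg over all genes tested. Levels are CPM with TMM factors. The lymphoid and muscle scores are mean log2 CPM with a prior count of 2. Library pairs differed by at least 9.82 in chi-square per gene, so none was counted as a copy. DESeq2 1.42.0 and limma 3.58.1 (voom), other scaling, filters, thresholds, covariates and subsets of libraries were alternatives.

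Named genes were Lep, Elovl6, Slc2a5, Kmo; 12 genes per direction, by size of change, from called genes whose groups do not overlap and that reach 1 CPM in 1 group (no predicted genes); the 8 most abundant called genes; up to 6 members per list, called ones first by adjusted p; the 5 with the smallest p for the difference between genotypes; and 6 called in each genotype alone. The 41 lists and the comparison were chosen with earlier results of these data known. Counts and medians cover all tested members of a list; some members are not reported here by name. Promoter windows are RefSeq entries of GRCm38.p6, matched by symbol or synonym for 11829 of the tested genes, which share 11782 entries by symbol. Counting intervals of ratios are exact, at 95%, and cover counting error only.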

Additional observations from a re-analysis of the deposited data

Results flagged for a closer look

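In each group of 4 libraries, the gap between the most extreme library and its nearest neighbour was compared with the range of the group. This covered 160 genes named by the rule above, the lymphoid and muscle scores and the total count. Genes given beyond that rule were not included. Of 326 such groups 28 (8.59%) had a library beyond Dixon's 95% critical value. Chance alone gives about 5% for normally distributed values, which groups with very few counts do not have. Groups of genes that move together are not independent, and the values follow in CPM.

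Most of these lay in the libraries described as standing apart. KO chow replicate 4 was the outlier for Lep (2410), Gpr50 (0.313), Ina (0.688), Mest (246), Actn2 (3.38), Sfrp5 (139.8), Angptl4 (488), Slc3a2 (123), Mfge8 (539.8) and Acaa1b (53.8), in each case the highest chow library. KO HFD replicate 1 was the outlier for Atp4b (0.0708), Fabp3 (0.92), Sorcs2 (2.62), Cyp1a1 (0.212), Clock (102.5), Bhlhe41 (18.5), Col6a2 (593) and Trp53inp2 (1342), and for the lymphoid score (4.87 against 0.02 to 0.47 in the other HFD libraries). It was the lowest HFD library for Clock, Col6a2 and Trp53inp2 and the highest for the others.

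The remaining outliers were spread over other libraries. KO chow replicate 2 was set apart for Kmo (0.543), Chrm4 (0), Srebf1 (651) and mt-Nd6 (2903). KO chow replicate 3 was set apart for Gm47572 (2.60) and Hsph1 (46.9), KO chow replicate 1 for Cacng5 (0.0629), and KO HFD replicate 4 for Hsd11b1 (110.2) and Acox2 (0.0697). The values of Cacng5, Chrm4, Gpr50, Atp4b and Acox2 rest on a few counts or none, and the Kmo value of KO chow replicate 2 on 8 counts.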

How the results depend on the processing

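The numbers of genes called in KO and WT moved with the processing, and the cause was not tested. Some settings also differed in the genes or libraries that entered. In KO, against 2071, the calls were 1284 with no filter on low counts, 3441 with limma-voom and quality weights, 603 with a minimum log2 fold change of 1, 3460 at an adjusted p under 0.10 and 768 with libraries of a lymphoid score under 4. Leaving out 1 library gave 745 to 2714. RLE scaling (2048), upper-quartile scaling (2032), DESeq2 (2813), the 8 KO libraries alone (1468), merged libraries only (1753) and the lymphoid (2296) or muscle (2555) score as covariate stayed within 1.5 times. Both scores together, chosen after seeing the data, gave 2888. In WT, against 1957, the calls were 1245 with no filter, 612 with the minimum fold change, 3366 at 0.10, 1140 with the 8 WT libraries alone, 625 with a lymphoid score under 4, 225 with merged libraries only and 689 to 2400 without 1 library. Calls of the difference between genotypes were 0 in every setting run. Upper-quartile scaling moved the median of all genes to −0.10 and moved the share of calls that were higher on HFD from 58.2% to 45.2%. The extracellular matrix count of 15 was 24 with limma-voom, 9 with a lymphoid score under 4 and 8 with the KO libraries alone.

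The replicate numbers are shared between groups. Same-numbered KO libraries deviated from their group means with correlations of 0.553, 0.378, −0.352 and 0.205. KO chow replicates 1 and 3, both with a lymphoid score above 4, correlated with KO HFD replicate 1 at 0.553 and 0.531. Because such variation between libraries enters these values, they cannot decide whether the numbers pair the libraries. With the replicate number as a block, 1126 genes were called in KO, 1119 of them among the 2071, and 1050 in WT. The 95% intervals of KO log2 fold changes had a median half-width of 0.44 over genes. Of the 2071 called genes 553 had a size under 0.5, so some differences near or below that half-width were called. That half-width is a median, and a gene that was not called may differ by more where its own interval is wider. Cd8a, which was not called, had an interval of −5.48 to 1.54.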
